A study of Mus musculus with 15 samples.

Results

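Alternative splicing was compared in quadriceps, a thigh muscle, between mice in which an expanded CUG repeat RNA was switched on and mice of the same genotype in which it was not. The comparison took every library labelled quadriceps, 5 of the 15 libraries of the series. Of these, 2 were induced (1 at 6 weeks of age and 1 at 20 weeks) and 3 were no-dox controls (1 at 12 weeks and 2 at 20 weeks). All 5 mice were female and carried the transgenes TREDT960I-HOM, which encodes the end of human DMPK with an interrupted CUG repeat, and MDAFrtTA, which turns it on in the presence of doxycycline (dox). The induced mice received dox from postnatal day 1, and the controls received none. The other 10 libraries were gastrocnemius, a calf muscle, with 4 induced, 3 no-dox and 3 dox-control libraries. The dox controls came from mice with TREDT960I alone that received dox. Induced gastrocnemius libraries came from weeks 6, 12, 12 and 20 and dox controls from weeks 6, 12 and 20. The no-dox ones came from weeks 6, 6 and 12, so none was at week 20. The second no-dox library of week 6 came from a male mouse and the other gastrocnemius libraries from females.

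The design sets limits on what the 5 libraries can show. Week 6 was represented in quadriceps by an induced library alone and week 12 by a no-dox library alone, so age and induction cannot be told apart there. Only week 20 held both, with 1 induced and 2 no-dox libraries. No dox control came from quadriceps, so an action of dox itself cannot be told apart from that of the repeat RNA. The promoter that drives rtTA is not given in the labels, and neither is the identity of the animals. P-values therefore measure only the spread between these libraries.

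Myotonic dystrophy type 1 (DM1) is caused by a CTG repeat in the 3′ untranslated region of DMPK. The repeat RNA collects in nuclear foci and sequesters the muscleblind-like proteins MBNL1 and MBNL2, while CELF1, an RNA-binding protein that often acts against them, becomes more abundant. Exons that MBNL proteins switch to their adult form after birth then return towards the fetal form. In skeletal muscle the best known of these are in the chloride channel Clcn1, the calcium pump Atp2a1, the membrane-shaping protein Bin1, the insulin receptor Insr and the MBNL genes themselves.

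Splicing was given as percent spliced in (PSI), the fraction of messages that hold the exon, on a scale of 0 to 1. Read this way, it is inclusion for skipped exons and retention for introns. The table does not say which form is counted in events of the other kinds (mutually exclusive exons, first and last exons, splice sites), so there only the PSI of the event is given. The table held 39123 events, of which 32381 had a value in all 5 quadriceps libraries, in 8553 genes. They comprised 9611 skipped exons, 7406 last-exon, 4919 first-exon, 3704 3′ splice site and 2351 5′ splice site events, with 2233 retained introns, 1125 tandem UTRs and 1032 mutually exclusive exon pairs. Each quadriceps library had between 34416 and 35581 values, and pairs of them correlated across events with Pearson's r between 0.954 and 0.960. Of the skeletal muscle marker genes, 12 of 15 had an event with a value in every quadriceps library. All 5 of the macrophage genes, 4 of 5 endothelial and 3 of 5 fibroblast genes also had values in every one of them. PSI does not give how much of a message was present, so the share of other cells could not be read from it.

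No event passed the test in the 5 libraries taken alone. With limma on PSI, a call needed a difference of at least 0.1 together with an adjusted p under 0.05. Of the 32381 events, 0 were called (0%), and the lowest adjusted p was 0.94. At an unadjusted limma p under 0.05 there were 1687 events (5.21%). A logit scale, which gives more weight to changes near 0 and 1, called 5 events. One was a first-exon event of Anxa2, a membrane-binding annexin, at 0.55 and 0.56 in induced and 0.22, 0.23 and 0.22 in no-dox libraries (limma adjusted p = 0.0182 on that scale). Another was a last-exon event of Dnm3, dynamin 3, at 0.27 and 0.29 against 0.57, 0.55 and 0.57 (adjusted p = 0.0184). In these events the libraries within each quadriceps group were almost equal. No-dox gastrocnemius libraries spread more, at 0.48, 0.19 and 0.45 for Anxa2 and 0.04, 0.45 and 0.03 for Dnm3. The induced minus no-dox difference in gastrocnemius was -0.161 for Anxa2 and 0.202 for Dnm3, opposite in sign to quadriceps. Among the remaining calls it was also opposite for Evi5l (0.130) and D17H6S56E-5 (0.003), and of the same sign for Myh8 (0.038).

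Differences are therefore described below by whether the groups overlapped. An event is called separated where both induced libraries lay above, or both below, all 3 no-dox libraries and the means differed by at least 0.1. This was not a test, and an exact permutation test of 2 against 3 libraries cannot go below p = 0.1. There were 2074 separated events (6.40%) in 1486 named genes, 1034 of them higher (3.19%) and 1040 lower (3.21%) in the induced libraries. Over all events the median difference was 0.000 and the median absolute difference 0.023. Unless a call is stated, no event named below passed the test, and its adjusted p in the 5-library limma fit was at least 0.94. In each sentence the induced values are in the order week 6, week 20, and the no-dox values in the order week 12, then the first and second library of week 20.

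A panel of 25 genes with known DM1 or MBNL splicing gave a mixed picture. For each gene the skipped exon with the largest difference was taken, and Pdlim3, which had none, was represented by a last-exon event listed at 0.00 in all 5 libraries. The groups were separated for 12 of the 25, with 7 higher and 5 lower in induced muscle, and overlapped or differed by less than 0.1 in 13. The rule took each gene's largest difference, so this count cannot be set against the 6.40% over all events. In 10 of the 12 the week 6 induced library lay farther from the no-dox mean than the week 20 induced library.

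**Figure D1:**
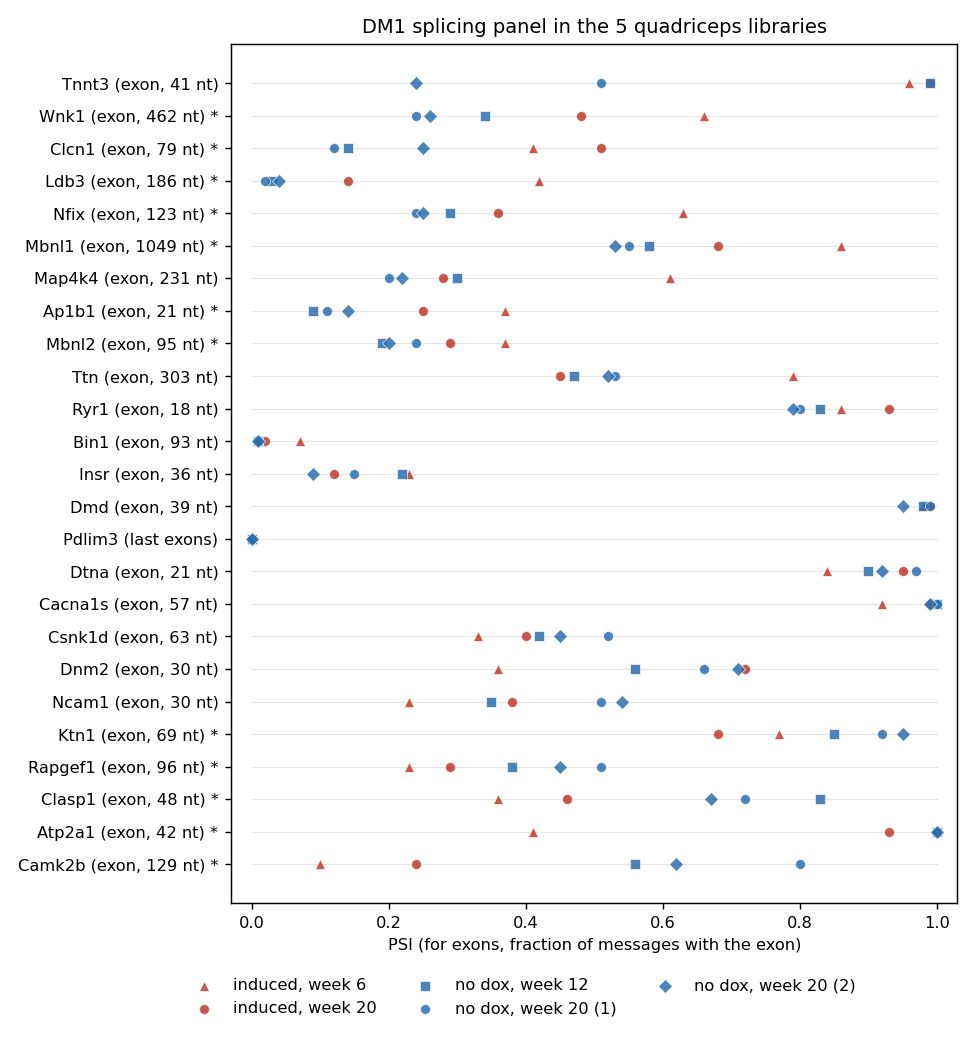
PSI of the chosen event of each of the 25 panel genes (rows, sorted by the difference between induced and no-dox means) in the 5 quadriceps libraries. Red symbols are induced and blue symbols no-dox libraries, and an asterisk marks the 12 events with separated groups. For Atp2a1 and Ldb3 the no-dox libraries sit together while the induced libraries spread, the week 6 library farthest out.

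MBNL genes regulate their own exons, and both had more inclusion in induced quadriceps. A 1049-nt exon of Mbnl1 (chromosome 3, 60528756 to 60529804, mm10) had PSI of 0.86 and 0.68 in induced and 0.58, 0.55 and 0.53 in no-dox libraries. Its difference was 0.217 (SE 0.067). The 54-nt exon of Mbnl1 (chromosome 3, 60614683 to 60614736), which is known to direct the protein to the nucleus, was at 0.33 and 0.13 against 0.05 in each of the 3 no-dox libraries. The corresponding 54-nt exon of Mbnl2 (chromosome 14, 120395712 to 120395765) was at 0.25 and 0.11 against 0.06, 0.07 and 0.07. A 95-nt exon of Mbnl2 (chromosome 14, 120404638 to 120404732) was at 0.37 and 0.29 against 0.19, 0.24 and 0.20. In all 4 exons both induced libraries were above every no-dox library, and week 6 was above week 20.

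A first-exon event of Mbnl1 was separated as well, with PSI of 0.73 and 0.57 in induced and 0.50, 0.48 and 0.47 in no-dox libraries. First-exon events report which of several starts a message used, so the 250 bases before the RefSeq starts of Mbnl1 are shown (GRCm38.p6, 5′ to 3′). The table does not say which start belongs to which form. Capitals mark CANNTG, the E-box motif that muscle regulatory factors such as MyoD can bind. It reads the same on both strands and is found in 66.2% of the 32851 RefSeq promoter windows of this length.
Mbnl1 upstream start, chr3:60472580-60472829, + strand: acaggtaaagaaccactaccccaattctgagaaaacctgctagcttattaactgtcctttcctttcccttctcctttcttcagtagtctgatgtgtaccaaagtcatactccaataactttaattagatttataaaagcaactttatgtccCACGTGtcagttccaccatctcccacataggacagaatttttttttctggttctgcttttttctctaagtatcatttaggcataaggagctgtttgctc
Mbnl1 downstream start, chr3:60500929-60501178, + strand: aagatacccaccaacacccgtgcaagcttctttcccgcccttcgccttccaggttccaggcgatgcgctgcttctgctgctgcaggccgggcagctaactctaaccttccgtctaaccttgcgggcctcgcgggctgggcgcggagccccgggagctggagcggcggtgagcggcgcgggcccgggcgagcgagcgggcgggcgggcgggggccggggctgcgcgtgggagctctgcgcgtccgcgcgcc
The upstream window held 1 CG dinucleotide and 1 CANNTG, and the downstream window held 33 CG dinucleotides and no CANNTG. The median over all windows was 6 CG dinucleotides.

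In the list of excitation-contraction coupling and ion channels, 9 genes had a separated event, among them Clcn1, Atp2a1, Camk2b and Asph. Exclusion of the 79-nt exon of Clcn1 keeps the reading frame of the muscle chloride channel, and its inclusion brings a stop codon that lowers the channel and causes myotonia. That exon (chromosome 6, 42293444 to 42293522) was included at 0.41 and 0.51 in induced and 0.14, 0.12 and 0.25 in no-dox quadriceps, a difference of 0.290 (SE 0.061). Both induced libraries were above all controls, and at week 20 the induced library exceeded the mean of its 2 age-matched controls by 0.325. The 42-nt exon of Atp2a1 (chromosome 7, 126446545 to 126446586), which marks the adult form of the SERCA1 calcium pump, was at 0.41 and 0.93 against 1.00 in every no-dox library. Its difference was -0.330 (SE 0.155) over the 5 libraries and -0.070 within week 20.

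Camk2b, a subunit of the calcium/calmodulin-dependent kinase, had the largest difference of the panel among separated events. A 129-nt exon (chromosome 11, 5976765 to 5976893) was at 0.10 and 0.24 in induced and 0.56, 0.80 and 0.62 in no-dox libraries, a difference of -0.490 (SE 0.094). At week 20 alone the difference was -0.470. Exons of the sister genes were separated by less. A 42-nt exon of Camk2d (chromosome 3, 126808208 to 126808249) was at 0.67 and 0.58 against 0.49, 0.55 and 0.47. Events of its 60-nt exon (126805857 to 126805916) went both ways. They were at 0.46 and 0.50 against 0.57, 0.53 and 0.64, and at 0.58 in both induced libraries against 0.52, 0.33 and 0.49. A 33-nt exon of Camk2g (chromosome 14, 20747819 to 20747851) was at 0.26 and 0.21 against 0.14, 0.03 and 0.20.

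Asph, whose products include the junctional protein junctin, had separated exons in opposite directions. A 96-nt exon (chromosome 4, 9610843 to 9610938) was at 0.86 and 0.64 against 0.57, 0.38 and 0.55, and a 75-nt exon (chromosome 4, 9607797 to 9607871) was at 0.46 and 0.84 against 0.92, 0.86 and 0.90. The voltage sensor Cacna1s and the calcium release channel Ryr1 did not reach the minimum difference. The Cacna1s exon was at 0.92 and 0.99 against 1.00, 1.00 and 0.99, and the 18-nt Ryr1 exon at 0.86 and 0.93 against 0.83, 0.80 and 0.79. A 93-nt exon of Bin1, which builds the T-tubules, was at 0.07 and 0.02 against 0.01 in each control. Over the 28 genes of the list of excitation-contraction coupling and ion channels with an event, 15 of 223 events were separated (6.73%), 10 higher and 5 lower, with a median absolute difference of 0.022. That share lies near the 6.40% of all events.

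Z-disc and sarcomere genes included the tropomyosin events described in the next paragraphs, which passed a test. Ldb3, which encodes the Z-disc protein ZASP, had 2 separated exons. The 186-nt exon (chromosome 14, 34555343 to 34555528) was at 0.42 and 0.14 in induced and 0.03, 0.02 and 0.04 in no-dox libraries. A 15-nt exon (chromosome 14, 34569713 to 34569727) was at 0.93 and 0.90 against 0.78, 0.70 and 0.75, so there both induced libraries were alike. In titin, the spring of the sarcomere, a 303-nt exon of Ttn was at 0.79 and 0.45 against 0.47, 0.53 and 0.52. That exon was high only in the week 6 library. The 41-nt exon of the fast troponin T gene Tnnt3 was at 0.96 and 0.99 against 0.99, 0.51 and 0.24, so the spread lay within the no-dox libraries, while all 10 gastrocnemius libraries were at 1.00.

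Splicing of the tropomyosin gene Tpm3 rose in induced quadriceps at a pair of mutually exclusive exons. Tropomyosins wrap the actin filament, and Tpm3 encodes the slow-muscle form from one start and short non-muscle forms from another. To gain power, the quadriceps difference was also fitted with the spread of all 15 libraries, with a mean for each of the 5 groups. The gastrocnemius libraries enter that fit only through the spread, which is small where their PSI lies near the lower limit of the scale. That fit covered the 31267 events with 15 values and called 3 of them (0.00959%), all higher in induced quadriceps. At an unadjusted p under 0.05 it held 2021 events (6.46%). Of the 3 calls, 2 were a pair of mutually exclusive exons of Tpm3 that share most of their sequence and reads. They differ in the end of the first exon, which spans 81 nt (chromosome 3, 90088401 to 90088481) or 76 nt (90088401 to 90088476), with the same second exon (90089048 to 90089123).

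For the 81-nt form of Tpm3, PSI was 0.16 and 0.22 in induced and 0.04, 0.02 and 0.00 in no-dox quadriceps. The rise was 0.170 (SE 0.016, limma adjusted p = 0.00428). For the 76-nt form it was 0.40 and 0.61 against 0.11, 0.12 and 0.04, a rise of 0.415 (SE 0.050, limma adjusted p = 0.0248). Both induced libraries were above every other library of the series in both events. Gastrocnemius libraries lay between 0.00 and 0.03 for the 81-nt form and between 0.01 and 0.12 for the 76-nt form. Without the second week 20 no-dox library the 76-nt event lost its call (adjusted p = 0.0745), and on the logit scale neither was called (adjusted p = 0.132 and 0.711).

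Other Tpm3 events were separated too. Its first-exon event was at 0.37 and 0.79 in induced and 0.17, 0.14 and 0.06 in no-dox quadriceps, a difference of 0.457 (SE 0.082 with 15 libraries, adjusted p = 0.183). A 79-nt exon (chromosome 3, 90091013 to 90091091) was at 0.15 and 0.11 against 0.26, 0.35 and 0.55 when paired with the farther downstream exon. Paired with the nearer one, it was at 0.90 and 0.54 against 0.96, 0.98 and 0.99. In gastrocnemius the first-exon event lay between 0.01 and 0.07 in all 10 libraries, and the 79-nt exon of the nearer pair between 0.99 and 1.00. With the farther exon it lay between 0.63 and 0.93 there, above all 5 quadriceps libraries. The bases before the starts of Tpm3 are given in the same way, since its starts are where the forms of the gene begin to differ.
Tpm3 upstream start, chr3:90072401-90072650, + strand: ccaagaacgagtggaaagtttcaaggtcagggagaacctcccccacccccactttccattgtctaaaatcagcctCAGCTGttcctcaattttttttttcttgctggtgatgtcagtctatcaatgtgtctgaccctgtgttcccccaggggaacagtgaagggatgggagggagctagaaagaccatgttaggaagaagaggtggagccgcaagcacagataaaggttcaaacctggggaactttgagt
Tpm3 downstream start, chr3:90079271-90079520, + strand: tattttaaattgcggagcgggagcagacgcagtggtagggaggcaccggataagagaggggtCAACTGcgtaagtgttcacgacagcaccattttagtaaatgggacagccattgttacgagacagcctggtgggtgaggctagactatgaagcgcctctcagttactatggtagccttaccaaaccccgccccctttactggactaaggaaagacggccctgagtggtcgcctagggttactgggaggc
Each window held 1 CANNTG in capitals, with 2 CG dinucleotides upstream and 11 downstream.

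**Figure D2:**
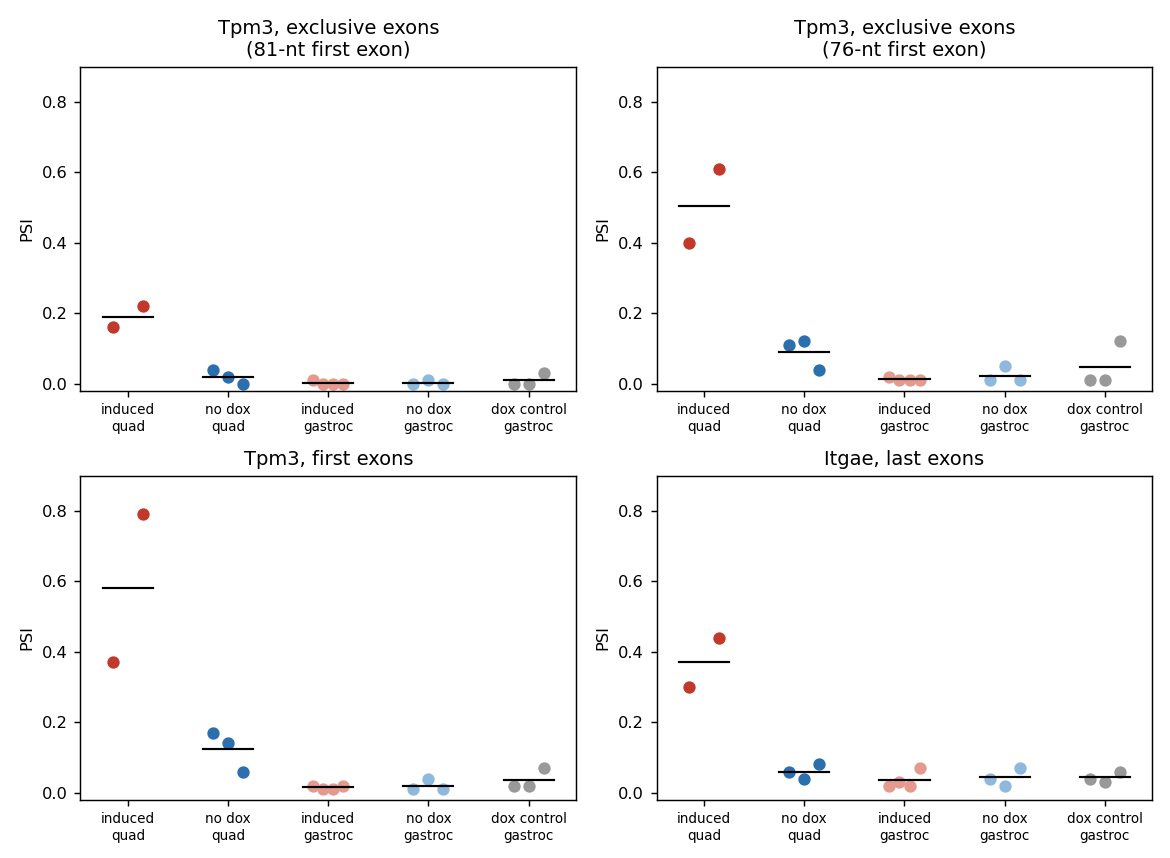
PSI of 3 Tpm3 events and of the Itgae last-exon event in all 15 libraries, by muscle (quad, quadriceps; gastroc, gastrocnemius) and condition. Points are libraries and bars are group means. In each panel both induced quadriceps libraries lie above the other 13 libraries.

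Slow-fibre genes were examined beside Tpm3, because the slow-muscle tropomyosin is a slow-fibre product. All 6 slow-fibre marker genes had a value in every quadriceps library. Of their 6 events, 2 were separated, in opposite directions. The share over all events was 6.40%, and 6 events are too few to set against it. A first-exon event of Myh7, the slow myosin heavy chain, was at 0.10 and 0.34 in induced and 0.02, 0.03 and 0.02 in no-dox quadriceps. In gastrocnemius it lay between 0.02 and 0.03 in every library. A 48-nt exon of Tnni1, slow troponin I (chromosome 1, 135799973 to 135800020), was at 0.51 and 0.41 against 0.63, 0.58 and 0.61. A share of slow fibres or of other cells cannot be read from PSI, and its part in the Tpm3 values was not tested. Over the sarcomere and Z-disc list, 14 of 178 events (7.87%, against 6.40% of all events) were separated, 8 higher and 6 lower. Of these 14, 6 were Tpm3 events.

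The other called event was a last-exon event of Itgae, an integrin chain best known from lymphocytes of epithelia. PSI was 0.30 and 0.44 in induced and 0.06, 0.04 and 0.08 in no-dox quadriceps, a rise of 0.310 (SE 0.032, limma adjusted p = 0.00721 with 15 libraries). The Itgae event kept its call without each quadriceps library in turn, and lost it on the logit scale (adjusted p = 0.344). The 10 gastrocnemius libraries lay between 0.02 and 0.07. How many calls the 15-library fit made depended on single libraries. There were 30 without the week 6 induced, 88 without the week 20 induced and 6 without the week 12 no-dox library. Without the first week 20 no-dox library there were 11, and without the second 4. Leaving out an induced library leaves 1 in that group, which is then assumed to vary like the other groups.

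The list of MBNL and DM1 splicing targets had 61 separated events of 558 (10.9%, against 6.40% of all events), 30 higher and 31 lower. They lay in 34 of the 60 measured genes of the list. Its median absolute difference, 0.022, was the same size as the 0.023 over all events. Among the 61 were 36 skipped exons and 12 first-exon events. Several share exons or reads, such as the first-exon events of Ktn1. A difference of at least 0.1 in the same direction within week 20 was present in 45 of the 61, against 1622 of all 2074 separated events. The direction within week 20 is fixed by the definition of a separated event.

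Among the transcription factors on that list, the separated events of Nfix, Mef2c and Mef2d were higher and that of Nfib was lower. A 123-nt exon of Nfix, a factor of the switch from fetal to adult muscle (chromosome 8, 84723728 to 84723850), was at 0.63 and 0.36 in induced and 0.29, 0.24 and 0.25 in no-dox libraries. A 144-nt exon of Mef2c, a myocyte enhancer factor (chromosome 13, 83625265 to 83625408), was at 0.94 and 0.80 against 0.74, 0.71 and 0.75. The mutually exclusive pair of Mef2d was at 0.34 and 0.21 against 0.15, 0.16 and 0.16. In these 3 genes the no-dox libraries were tightly grouped and week 6 stood highest. Among transcription factors and chromatin genes as a list, 29 of 377 events (7.69%, against 6.40% of all events) were separated, 20 higher and 9 lower. A 63-nt exon of Tead1, a partner of YAP (chromosome 7, 112841888 to 112841950), was at 0.46 and 0.55 against 0.65, 0.76 and 0.71. A last-exon event of Nfib was at 0.21 and 0.31 against 0.60, 0.42 and 0.59.

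Of 595 events in the list of sarcolemma, costamere and cytoskeleton, 35 were separated (5.88%), 12 higher and 23 lower. That share is below the 6.40% of all events, and the list's median difference was 0.000. Clasp1, which stabilises the plus ends of microtubules, had a 48-nt exon (chromosome 1, 118512175 to 118512222) at 0.36 and 0.46 in induced and 0.83, 0.72 and 0.67 in no-dox libraries. A 24-nt exon of Clasp1 (chromosome 1, 118541675 to 118541698) went the other way, at 0.60 and 0.27 against 0.26, 0.20 and 0.14. In the microtubule-binding protein tau, Mapt, a 54-nt exon (chromosome 11, 104307881 to 104307934) was at 0.53 and 0.78 against 0.81, 0.92 and 0.93. A 69-nt exon of Ktn1, a kinesin-binding protein of the endoplasmic reticulum (chromosome 14, 47704420 to 47704488), was at 0.77 and 0.68 against 0.85, 0.92 and 0.95. Syne1, which ties the nucleus to the cytoskeleton, had a 69-nt exon (chromosome 10, 5045266 to 5045334) at 0.22 and 0.15 against 0.37, 0.43 and 0.37.

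In Wnk1, a kinase that controls chloride transport, a 462-nt exon (chromosome 6, 119953771 to 119954232) was at 0.66 and 0.48 in induced and 0.34, 0.24 and 0.26 in no-dox libraries. A shorter 132-nt version with the same start was at 0.55 and 0.41 against 0.25, 0.22 and 0.25, and these overlapping exons share reads. Rapgef1, an exchange factor for the GTPase Rap1, had a 96-nt exon (chromosome 2, 29720643 to 29720738) at 0.23 and 0.29 against 0.38, 0.51 and 0.45. The phosphoinositide phosphatase Synj2 had a 149-nt exon (chromosome 17, 6036357 to 6036505) at 0.47 and 0.33 against 0.12, 0.16 and 0.17. The list of insulin signalling, kinases and phosphatases had 27 of 311 events separated (8.68%, against 6.40% of all events), 16 higher and 11 lower. The 36-nt exon of Insr itself was at 0.23 and 0.12 against 0.22, 0.15 and 0.09, so the groups overlapped.

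Among 326 events of endocytosis and vesicle traffic, 21 were separated (6.44%), 12 higher and 9 lower. The share over all events was 6.40%, almost the same. Ap1b1, a subunit of the clathrin adaptor AP-1, had a 21-nt exon (chromosome 11, 5033242 to 5033262) at 0.37 and 0.25 against 0.09, 0.11 and 0.14. A 36-nt exon of Clta, clathrin light chain A (chromosome 4, 44031400 to 44031435), was at 0.74 in both induced libraries against 0.50, 0.60 and 0.52. The cell-fate regulator Numb had a 33-nt exon (chromosome 12, 83825259 to 83825291) at 0.63 and 0.41 against 0.29 in each control. A 75-nt exon of Arfip1, which binds small GTPases of the ARF family (chromosome 3, 84529191 to 84529265), was at 0.16 and 0.50 against 0.76, 0.61 and 0.73.

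The list of splicing factors and RNA-binding proteins had 27 of 337 events separated (8.01%), 15 higher and 12 lower. It contains the MBNL genes, and without them 22 of 324 events were separated (6.79%), 10 higher and 12 lower. Without them the share was thus near the 6.40% of all events. A 53-nt exon of Rbfox1, a muscle and brain splicing factor (chromosome 16, 7391988 to 7392040), was at 0.80 and 0.73 in induced and 0.94, 0.89 and 0.89 in no-dox libraries. In Ptbp1, a repressor of muscle exons, retention of a 247-nt intron (chromosome 10, 79858825 to 79859071) was at 0.62 and 0.60 against 0.83, 0.80 and 0.83. Retention of a 262-nt intron of Celf2, a relative of CELF1 (chromosome 2, 6546780 to 6547041), was at 0.82 and 0.23 against 0.17, 0.11 and 0.17. The Celf2 value stood out in the week 6 library alone.

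The list of regenerating, developing and denervated muscle had the largest share of separated events of the 12 lists. It was 11 of 74 (14.9%, against 6.40% of all events), 4 higher and 7 lower. The list's median absolute difference was also larger, at 0.049 against 0.023 over all events. Only 11 of its 24 genes had an event with 5 values, and Myh8, the perinatal myosin heavy chain, gave 4 of the 11 events. Its largest was a last-exon event at 0.07 and 0.20 in induced and 0.49, 0.78 and 0.70 in no-dox libraries, a difference of -0.522 (SE 0.105). Another last-exon event of Myh8 was at 0.15 and 0.18 against 0.01, 0.00 and 0.01, and was among the 5 called on the logit scale. These last-exon events overlap. A 156-nt exon of Chrne, the adult subunit of the acetylcholine receptor (chromosome 11, 70618155 to 70618310), was at 0.77 and 0.69 against 0.94, 0.87 and 0.95. The 30-nt exon of Ncam1, a marker of denervated fibres, was at 0.23 and 0.38 against 0.35, 0.51 and 0.54, so its groups overlapped.

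The other panel genes without separated groups were Dmd, Dtna, Map4k4, Dnm2 and Csnk1d. In Map4k4, a kinase, a 231-nt exon was at 0.61 and 0.28 against 0.30, 0.20 and 0.22, and in Dnm2, the GTPase dynamin 2, a 30-nt exon was at 0.36 and 0.72 against 0.56, 0.66 and 0.71. In both genes the week 6 induced library stood apart, while the week 20 library lay within the controls for Map4k4 and just above them for Dnm2. A 63-nt exon of the kinase Csnk1d was at 0.33 and 0.40 against 0.42, 0.52 and 0.45, below the controls by less than the minimum difference. The 39-nt exon of dystrophin, Dmd, lay between 0.95 and 0.99 in all 5 libraries, and the 21-nt exon of Dtna, a dystrophin partner, between 0.84 and 0.97.

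Energy metabolism had 5 of 126 events separated (3.97%, against 6.40% of all events), 3 higher and 2 lower. Choline kinase Chka and the mitochondrial fusion protein Opa1 were among them, and a 54-nt exon of Opa1 (chromosome 16, 29588823 to 29588876) was at 0.27 and 0.35 against 0.53, 0.38 and 0.52. Of 84 events in broadly expressed control genes 0 were separated. Markers of other cell types had 3 of 63 (4.76%), all higher, and all in the macrophage genes Cd68 and Itgam. A 461-nt stretch of Cd68 (chromosome 11, 69665476 to 69665936) was at 0.82 and 0.84 against 0.71, 0.65 and 0.64.

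**Figure D3:**
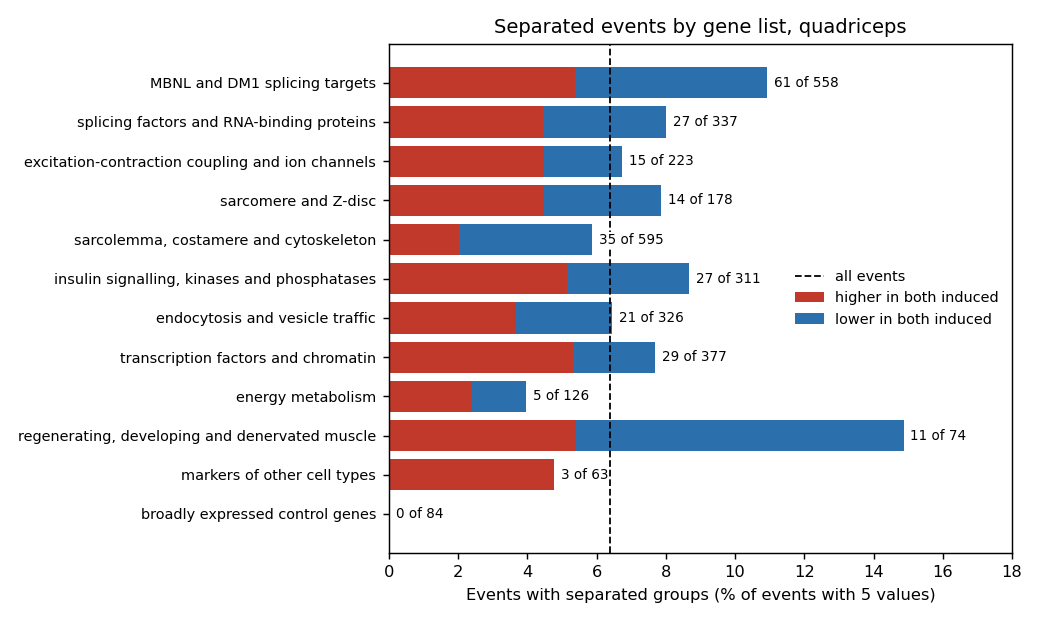
Share of events with separated groups in quadriceps for each of 12 gene lists, split into events higher (red) and lower (blue) in both induced libraries, with the number separated of the number measured. The dashed line is the 6.40% over all 32381 events. The MBNL and DM1 list (10.9%) and the regeneration list (14.9%) reach farthest beyond it, and the control genes are at 0. The median absolute difference was 0.049 in the regeneration list and 0.008 in the control genes, against 0.023 over all events.

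Other large separated differences fell on genes of varied function. A 39-nt exon of Mpv17, an inner mitochondrial membrane protein (chromosome 5, 31145240 to 31145278), was at 0.67 and 0.88 in induced and 0.23, 0.33 and 0.33 in no-dox libraries. A first-exon event of the cytokine receptor kinase Jak3 was at 0.66 and 0.65 against 0.25, 0.25 and 0.19. Retention of a 280-nt intron of Lsm5, a protein that binds the U6 small nuclear RNA (chromosome 6, 56703034 to 56703313), was at 0.53 and 0.63 against 0.07, 0.20 and 0.20. The induced libraries were close to each other for Jak3 and farther apart for Mpv17 and Lsm5. In gastrocnemius the Lsm5 intron was at 0.01, 0.01, 0.27 and 0.16 in induced libraries and 0.66, 0.47 and 0.62 in dox controls. The induced minus no-dox difference there was 0.087 for Mpv17 and 0.039 for Jak3.

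Retention of a 92-nt intron of Tsc2, the mTORC1 inhibitor tuberin (chromosome 17, 24596954 to 24597045), was at 0.49 and 0.60 against 0.18, 0.07 and 0.20. The remaining 5 of the 10 largest gains, beside Tpm3, were in Fam110b, Lysmd4, Kctd17, Kdm1b and Paxx, with differences between 0.385 and 0.402. The 10 largest losses were led by Myh8 and Camk2b. Retention of an 810-nt intron of Iffo1, an intermediate filament family member (chromosome 6, 125151804 to 125152613), was at 0.08 and 0.24 against 0.54, 0.65 and 0.72. A 123-nt exon of the zinc finger gene Zfp961 (chromosome 8, 71965794 to 71965916) was at 0.10 and 0.30 against 0.62, 0.72 and 0.64. The mitochondrial GTPase gene Rhot2 had a 114-nt intron (chromosome 17, 25840108 to 25840221) retained at 0.29 and 0.16 against 0.73, 0.49 and 0.68. The other 5, in Man2b2, Safb2, Gpr155, Klhdc4 and Mdn1, differed by -0.437 to -0.405. In gastrocnemius the induced minus no-dox difference was 0.129 for Tsc2, -0.182 for Iffo1 and -0.024 for Zfp961. For Rhot2 it was 0.092, opposite in sign to quadriceps. Induced gastrocnemius libraries spread widely for Tsc2, at 0.02, 0.56, 0.05 and 0.38.

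The share of separated events is given for each kind of event, with no test between kinds. Separated groups were found in 9.60% of first-exon events, 8.82% of mutually exclusive exons and 7.29% of tandem UTRs. The shares were 6.34% for skipped exons, 6.21% for 5′ and 5.99% for 3′ splice sites, 5.15% for retained introns and 4.55% for last exons. Among skipped exons, those of up to 30 nt were separated in 36 of 431 (8.35%). Longer exons that keep the reading frame were separated in 280 of 4211 (6.65%), and longer exons that do not in 293 of 4969 (5.90%).

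The induced libraries were also compared one by one with controls that they do not share. The week 6 induced library was set against the week 12 no-dox library, and the week 20 induced library against the mean of the 2 week 20 no-dox libraries. Across all 32381 events the differences of these pairs had a Pearson's r of 0.016. Within the MBNL and DM1 list r was 0.155 (558 events) and within the regeneration list 0.433 (74 events). Small lists strayed in both directions, with -0.253 in the broadly expressed control genes (84 events) and -0.204 in the markers of other cell types (63 events). Events of one gene share reads and all events share the libraries, so these values are descriptions. Of the 2074 separated events, the week 6 library lay farther from the no-dox mean in 1094 and the week 20 library in 890. In the MBNL and DM1 list the week 6 library was the farther in 40 of 61.

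**Figure D4:**
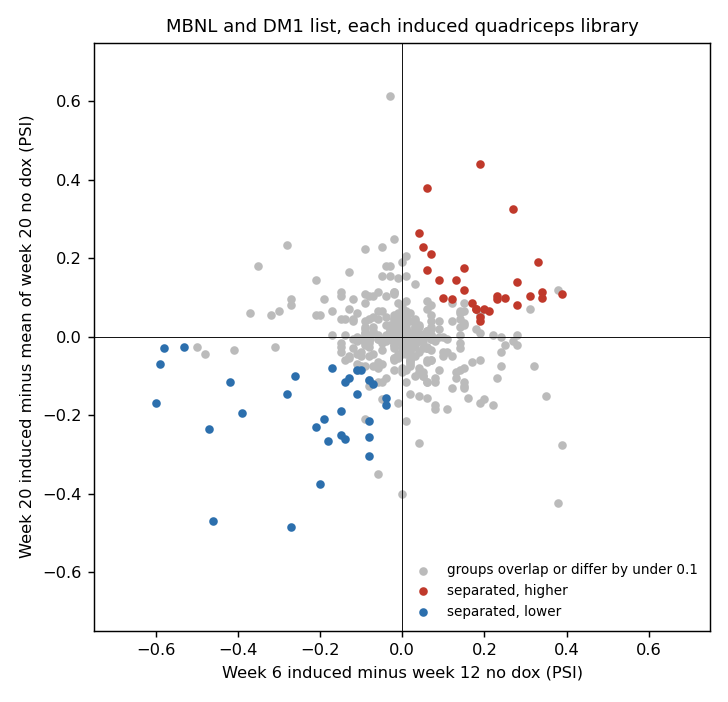
Difference in PSI of the week 6 induced library from the week 12 no-dox library (horizontal) and of the week 20 induced library from the mean of the week 20 no-dox libraries (vertical), for the 558 events of the MBNL and DM1 list. Red and blue points are the separated events, 30 higher and 31 lower, which by their definition lie in the upper right and lower left, and the grey points scatter around 0 (r = 0.155 over all points).

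Gastrocnemius, measured in other libraries, gave a second view of the panel. For all 12 separated panel exons the induced minus no-dox difference had the same sign in gastrocnemius, and for 11 of the 12 it was at least 0.1. The panel was chosen with earlier results of these data known, so this is not independent evidence. Of all 578 separated skipped exons with gastrocnemius values, 123 (21.3%) differed there by at least 0.1 in the same direction. In the opposite direction there were 45 (7.79%). In induced gastrocnemius Clcn1 was at 0.432 ± 0.312 (SD, n = 4), and without dox at 0.147 ± 0.090 (SD, n = 3), a difference of 0.286. Its induced values were 0.20 at week 6, 0.61 and 0.78 at week 12 and 0.14 at week 20, so those of weeks 6 and 20 lay within the no-dox range of 0.06 to 0.24. Without the week 12 library at 0.78 the difference was 0.170. The Mbnl1 1049-nt exon was at 0.828 ± 0.061 (SD, n = 4) against 0.620 ± 0.010 (SD, n = 3). Atp2a1 was at 0.772 ± 0.139 (SD, n = 4) against 1.00 in each no-dox library. The Ldb3 186-nt exon was at 0.228 ± 0.114 (SD, n = 4) against 0.030 ± 0.010 (SD, n = 3), and Camk2b at 0.230 ± 0.204 (SD, n = 4) against 0.537 ± 0.241 (SD, n = 3).

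Whether an induced difference was unlike in the muscles was tested directly with the interaction of muscle and induction over no-dox controls. The ages of the groups differed between the muscles, and no week term entered this fit. Of 31267 events 0 were called (0%), with 1467 (4.69%) at an unadjusted p under 0.05 and a lowest adjusted p of 0.0707, for the 81-nt Tpm3 event. For that event the difference was 0.170 in quadriceps and -0.001 in gastrocnemius, a difference between muscles of 0.171 (SE 0.020). Itgae had 0.310 and -0.008, with a difference between muscles of 0.318 (SE 0.042, limma adjusted p = 0.0887). Without the week 6 induced quadriceps library 12 events were called and without the week 20 induced library 28. Without the week 12 or the first week 20 no-dox library there were 2 each, and without the second week 20 no-dox library 0. The 81-nt Tpm3 event was called in the first 3 of these fits (adjusted p = 0.000791, 0.0118 and 0.0387).

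Over all events the quadriceps and gastrocnemius differences had an r of 0.054 (31498 events), and over the MBNL and DM1 list 0.353 (551 events). Other lists reached the same or more, with 0.476 in energy metabolism, 0.408 in the regeneration list, 0.361 in excitation-contraction coupling and 0.357 in splicing factors. The lowest were -0.141 in markers of other cell types and -0.087 in the sarcolemma list. No library entered both sides of these values. Of 1948 separated events with values in gastrocnemius, 292 differed there by at least 0.1 in the same direction and 195 in the opposite one. Among the separated events of the MBNL and DM1 list 20 of 60 (33.3%) did so in the same direction and 6 in the opposite one. For splicing factors and RNA-binding proteins it was 10 of 27 and 0, some of them the Mbnl1 and Mbnl2 events of the previous list. For energy metabolism it was 4 of 5 and 0. For sarcomere and Z-disc genes it was 1 of 14 and 1, and for sarcolemma, costamere and cytoskeleton 5 of 31 and 7. Skipped exons over 30 nt that keep the reading frame had 73 of 266 (27.4%) in the same direction and 18 (6.77%) in the opposite one.

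**Figure D5:**
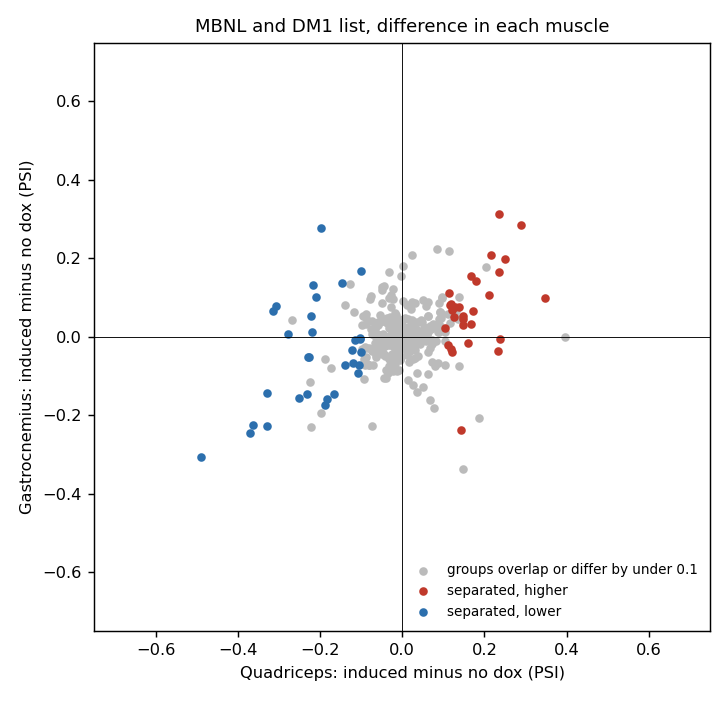
Difference in PSI between induced and no-dox libraries in quadriceps (horizontal) and gastrocnemius (vertical) for the 551 events of the MBNL and DM1 list with values in both. Red and blue points are separated in quadriceps, higher and lower; r over all points was 0.353, and 20 of the 60 coloured events differed by at least 0.1 in the same direction in gastrocnemius.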

How the data were processed

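Libraries of poly-A RNA were read from both ends, per the labels' protocols. The authors deposited a fraction (PSI, 0 to 1, 2 decimals) per event and library, and the deposited table's name calls it MISO output. The submitters' processing notes name TopHat and mm10; their versions, the annotation and a read minimum were not stated in what was used here. Read counts do not come with the values, so depth and counting error are unknown.

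Columns were matched to libraries by the library identifiers in the titles. Events named by gene ID took the RefSeq symbol of GRCm38.p6, and for the others the symbol in the file was used if that gene lies there. Among the events with 5 values, 12291 were named by gene ID. Of 8038 events with both a gene ID and a symbol in the file, the file gave a different gene in 5196, synonyms counted as equal. The gene names of such events therefore rest on the ID. Differences were fitted with limma 3.58.1 in R 4.3.3 (variance trend, robust), two-sided, with Benjamini-Hochberg adjustment over all events tested. Logit values were clipped at 0.01 and 0.99. The fit was tested on simulated data. Promoter windows are RefSeq's, GRCm38.p6.

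The members, the panel of 25 genes and the 12 lists were chosen with earlier results of these data known. Named events are the 10 largest separated differences in each direction (1 per gene), each panel gene's largest skipped exon, up to 4 separated events per list and the calls of the 15-library fit. Further events of these and of other list genes were named after their values were seen. A few events that the rule names are not reported here. Alternatives were each library left out, a logit scale, filters on mean PSI, week 20 alone, no trend or robust step, a week term and dox controls added.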

Additional observations from a re-analysis of the deposited data

Results flagged for a closer look

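In the induced gastrocnemius libraries, set beside quadriceps for 28 events, single libraries stood apart in 2 events of Tpm3, by a gap large against the range of the group of 4. The 81-nt event was at 0.01 in the week 6 library and 0.00 in the others, and the 76-nt event at 0.02 in the same library and 0.01 in the others. Both gaps equal the last decimal of the table, and such a gap arises by chance in about 1 in 20 groups.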

How the results depend on the processing

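With 2 against 3 libraries of unknown depth, 0 events called does not show that events did not differ. Without each library in turn the count of calls stayed at 0, as it did with a mean PSI of 0.05 to 0.95, without trend and robust step, in week 20 alone, with at least 2 no-dox values and with no minimum difference. It was 5 on the logit scale: Anxa2, Evi5l, Myh8, Dnm3 and D17H6S56E-5. With 15 libraries the count was 4 to 88 without each library and 1 on the logit scale. Between muscles it was 0 to 28 without each library, 1 with a week term and 2 with dox controls added. Separated events numbered 3286 to 5111 without each library and 5631 in week 20 alone, where fewer libraries make separation easier, and 626 at a minimum difference of 0.2. Of the 2074, 1622 were also separated in week 20 alone. Among single events 4 changed direction, none of them separated. In week 20 alone Ttn was at -0.075, Dnm2 at 0.035 and Dtna at 0.005. Without each library Ttn ranged from -0.057 to 0.283, Dnm2 from -0.283 to 0.077, Dtna from -0.090 to 0.020 and Insr from -0.033 to 0.077. The cause was not tested. Leaving out single induced gastrocnemius libraries, an alternative chosen after seeing the data, changed the sign of none of the 5 gastrocnemius differences so tested (Clcn1, Mbnl1, Atp2a1, Ldb3 and Camk2b). No paired analysis was possible because both induced quadriceps libraries carry the number 2 in their titles, so the groups share fewer than 2 numbers.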

Other observations

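Some first-exon events of structural genes were separated in quadriceps, against 9.60% of first-exon events in all genes. These were 1 of 6 in Ank2, 1 of 14 in Utrn, 1 of 8 in Dmd, 4 of 69 in Plec and 4 of 10 in Syne2. Those of Dmd, Plec and Syne2 were named after their values were seen. A first-exon event of Ank2, an ankyrin that anchors membrane proteins, was at 0.22 and 0.78 in induced and 0.80, 0.80 and 0.82 in no-dox libraries, so the difference lay in the week 6 library. Utrn, the dystrophin relative utrophin, was at 0.53 and 0.70 against 0.31, 0.17 and 0.48, and the event of Dmd itself was at 0.74 and 0.66 against 0.78, 0.82 and 0.81. The largest of Plec, which links intermediate filaments, was at 0.36 and 0.57 against 0.71, 0.77 and 0.72. Those of Syne2, a nuclear anchor, were 2 higher and 2 lower. In gastrocnemius Ank2 differed by 0.079 and Utrn by -0.158, opposite in sign to quadriceps. None of these events passed a test.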
